A study of Mus musculus with 5 samples.

Results

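The transcripts described here encode the kinases of the p38 and ERK5 MAP kinase cascade, which lies upstream of MEF2 factors, together with kinases that act downstream of p38. They were chosen by name, as the probe sets annotated to 10 genes: the upstream kinases *Map3k3* and *Map3k5*, the MAP kinase kinases *Map2k3*, *Map2k5* and *Map2k6*, the MAP kinases *Mapk14* and *Mapk7*, and the MAP kinase-activated protein kinases *Mapkapk2*, *Mapkapk3* and *Mapkapk5*. Of these, 8 genes had a probe set annotated to them alone, 1 each, so that 8 of the 17323 genes measured, and 8 of the 23809 probe sets tested, are described. *Map2k6* had no probe set named in the annotation used here, and *Mapkapk5* shared its probe set with *Adam1a* and was not counted. Pro-B cells (B220+IgM-CD43+CD24+), B-lymphoid progenitors of the bone marrow, were sorted by FACS from mice aged 9 months, and their RNA was hybridised to Affymetrix Mouse Genome 430 2.0 arrays. The control group of 3 arrays came from mice that per the study's methods carried 1 or 2 floxed *Mef2c* alleles without Cre (*Mef2c* fl/+ and *Mef2c* fl/fl), or Vav-Cre with 1 floxed allele (Vav-Cre *Mef2c* fl/+), so all controls carried a floxed allele, and the labels do not say which array had which genotype. The *Mef2c*-deficient group of 2 arrays carried Vav-Cre and a pair of floxed alleles (Vav-Cre *Mef2c* fl/fl), and this Cre acts in haematopoietic cells as a whole and not in pro-B cells alone. The arrays are described as independent samples, but nothing says that each was 1 mouse, so p-values measure the spread between these samples, which may in part be technical.

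The p38 and ERK5 pathways are relays of kinases. A MAP3K such as ASK1 (*Map3k5*) or MEKK3 (*Map3k3*) phosphorylates a MAP kinase kinase, MKK3 (*Map2k3*) and MKK6 (*Map2k6*) then activate p38, and MEK5 (*Map2k5*) activates ERK5 (*Mapk7*). Active p38 and ERK5 phosphorylate MEF2 transcription factors and raise their activity, and p38 also activates MK2 (*Mapkapk2*) and MK3 (*Mapkapk3*), which act on RNA-binding proteins and the small heat shock protein HSP27. Kinase activity is set by phosphorylation, which arrays do not measure, so the values below concern transcript levels only.

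The promoters of 4 of these genes are shown as the 250 bases before a RefSeq start site on GRCm38.p6, read 5′ to 3′ on the strand of the gene, with each GC box (GGGCGG, or CCGCCC on the other strand) in capitals. *Map2k3* and *Mapk7* are shown as genes lower on both *Mef2c*-deficient arrays than on any control array. *Map2k5* and *Map3k5* were lower in the same way and are not shown. *Map3k3* and *Mapkapk3* are shown because 1 *Mef2c*-deficient array read above all other arrays for them. The 4 genes shown were chosen after their values were seen, so they are no test of GC boxes against direction.
*Map2k3*, chr11:60931804-60932053, plus strand: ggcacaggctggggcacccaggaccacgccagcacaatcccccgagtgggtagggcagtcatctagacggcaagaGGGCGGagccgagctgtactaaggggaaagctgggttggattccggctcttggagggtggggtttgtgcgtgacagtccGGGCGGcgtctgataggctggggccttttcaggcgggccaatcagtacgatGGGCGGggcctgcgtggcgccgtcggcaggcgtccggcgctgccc
*Mapk7*, chr11:61494267-61494516, minus strand: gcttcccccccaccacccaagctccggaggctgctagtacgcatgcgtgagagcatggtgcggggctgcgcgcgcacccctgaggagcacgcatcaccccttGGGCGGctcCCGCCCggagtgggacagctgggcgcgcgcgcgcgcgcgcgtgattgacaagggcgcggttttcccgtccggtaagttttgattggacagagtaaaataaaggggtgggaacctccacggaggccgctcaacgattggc
*Map3k3*, chr11:106084337-106084586, plus strand: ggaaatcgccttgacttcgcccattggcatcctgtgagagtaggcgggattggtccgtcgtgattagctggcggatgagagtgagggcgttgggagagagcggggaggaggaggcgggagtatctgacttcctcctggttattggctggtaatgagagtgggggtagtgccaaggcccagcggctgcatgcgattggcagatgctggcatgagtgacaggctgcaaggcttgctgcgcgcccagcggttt
*Mapkapk3*, chr9:107289878-107290127, minus strand: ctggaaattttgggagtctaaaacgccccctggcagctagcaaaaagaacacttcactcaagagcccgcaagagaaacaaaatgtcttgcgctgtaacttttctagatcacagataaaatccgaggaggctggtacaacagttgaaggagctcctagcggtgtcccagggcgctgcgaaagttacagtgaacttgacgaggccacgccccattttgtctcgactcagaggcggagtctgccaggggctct

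The *Map2k3* window held 3 GC boxes and the *Mapk7* window 2, and those of *Map3k3* and *Mapkapk3* held 0. The window of *Mapkapk2*, which was lower on average, also held 0, as did a window of *Mapk14*. All 10 genes had a promoter in the RefSeq table, 15 windows in all, and 7 windows of 6 genes (*Map2k3*, *Map2k5*, *Map2k6*, *Map3k5*, *Mapk14* and *Mapk7*) held a GC box on either strand, against 32.7% of all 32851 promoter windows of the same length. The 7 windows include 2 of *Mapk7* that overlap. The MEF2 consensus, searched on both strands, was in 0 of the 15 windows and in 2.92% of all windows. Of other motifs searched in the same way, the cAMP response element TGACGTCA was in 0 of the 15 windows (1.55% of all), the AP-1 site TGANTCA in 1, of *Map2k6* (6.75% of all), the ETS core CCGGAAGT in 0 (2.88% of all) and the E-box CANNTG in 11 (66.2% of all). Such a match describes letters in a window and is not a bound site, and the absence of a match says nothing about regions outside it.

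Values are the intensities as deposited. They appear to be e raised to the log2 signal, since their natural logarithm runs from 1.15 to 14.5 as log2 signals do, and 296 to 422 values per array exceed 65535, the most a 16-bit scanner records. A fold change of these values is therefore larger than the fold of the signal itself, and both are given for the kinases that passed and for the main examples among the other genes. A gene was called lower or higher at an unadjusted limma p of at most 0.05 and a fold of 2 or more in these values. The study names the same thresholds, but whether its fold was taken in these values or in the signal is not known. By this rule 13.5% of all probe sets were lower and 10.1% higher on the *Mef2c*-deficient arrays. No probe set passed an adjusted p of 0.05 (limma, Benjamini-Hochberg, smallest adjusted p = 0.102), and 7038 probe sets, 29.6%, had an unadjusted p of at most 0.05. An exact permutation test of 3 against 2 arrays cannot give a p under 0.05 for any gene. The targeted gene *Mef2c* read 14006, 20854 and 17220 on the control arrays and 7379 and 6219 on the *Mef2c*-deficient arrays, a log2 fold change of −1.34 (SE 0.28, adjusted p = 0.103, 1.90-fold lower in signal). The sources do not place its probe set relative to the deleted part of the gene, so the value that remains measures no efficiency of deletion. All 13 measured pro-B cell markers, such as *Rag1*, were above the array median on each of the 5 arrays. So were all 12 measured myeloid markers, such as *S100a9*, and their summed deposited value exceeded that of the pro-B cell markers on every array. Being above the median therefore does not tell these cell types apart. Summed marker values, here and below, are of deposited values, whose scale weights them towards the brightest genes. They do not compare amounts of RNA.

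Most kinases of the cascade had lower transcript levels on the *Mef2c*-deficient arrays, but few of these differences exceeded the spread between arrays. Of the 8 kinases, 2 (25%) were called lower, MEK5 (*Map2k5*) and ASK1 (*Map3k5*), beside 13.5% of all probe sets. With the fold of 2 asked of the signal, 8.51% of all probe sets were lower and 4.57% higher, and of the kinases only *Map2k5* was lower. None was called higher, beside 10.1% of all probe sets, and limma gave 0 of the 8 an adjusted p under 0.05 and 3 an unadjusted p under 0.05. For 4 kinases both *Mef2c*-deficient arrays were below every control array, beside 23.5% of all probe sets, and for 0 were both above, beside 27.5%. The median log2 fold change of the 8 was −1.02, against 0.19 over all probe sets and −0.68 over the probe sets above the median level. In bulk RNA, fewer cells that carry a transcript and less of it per cell cannot be told apart.

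**Figure D1:**
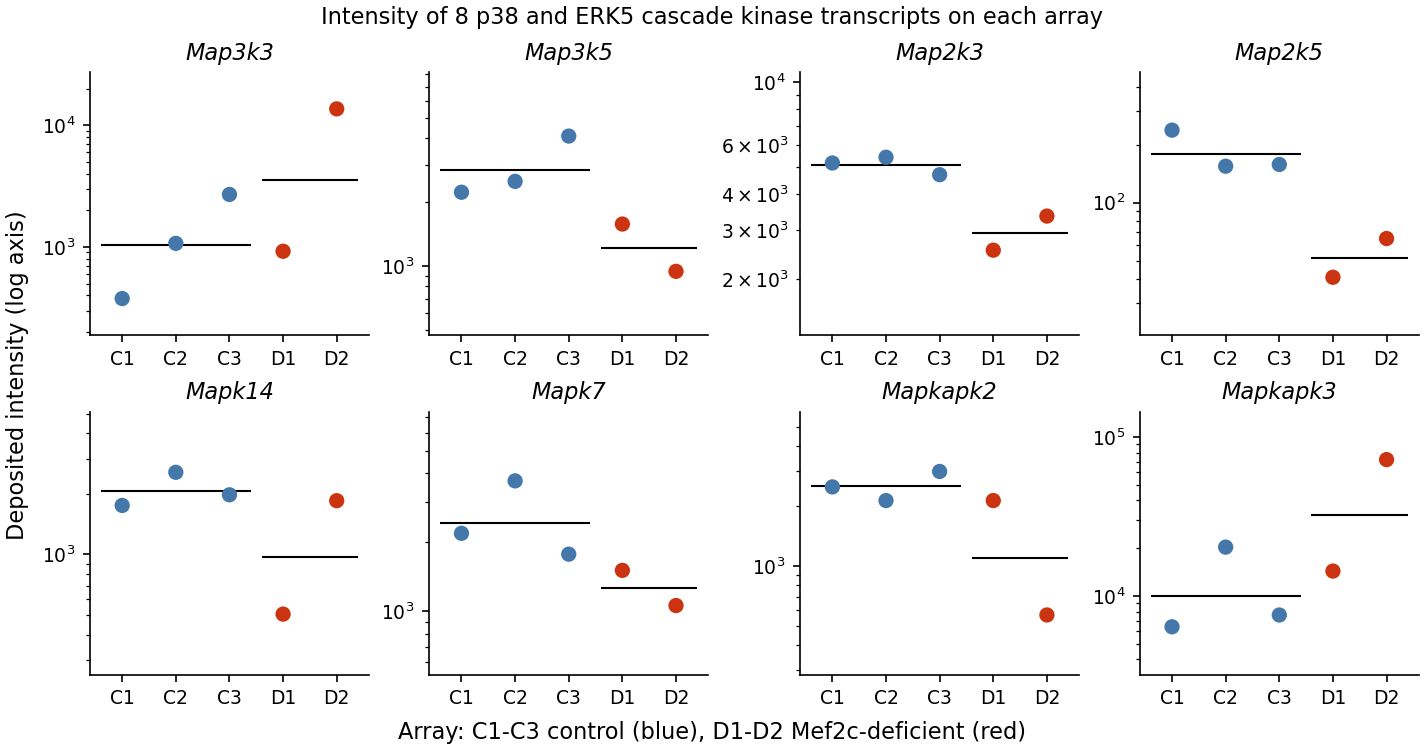
Deposited intensity (log axis, a separate scale per panel) of the 8 kinase transcripts on control arrays C1 to C3 (blue) and *Mef2c*-deficient arrays D1 and D2 (red), with the geometric mean of each group as a line. Both red points lie below all blue points for *Map3k5*, *Map2k3*, *Map2k5* and *Mapk7*, whereas *Map3k3* and *Mapkapk3* are highest on D2 and *Mapk14* is lowest on D1.

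At the top of the cascade, 1 of the 2 MAP3Ks measured fell and the other did not pass. ASK1 (*Map3k5*), a MAP3K activated by oxidative stress, read 2225, 2503 and 4094 on the control arrays and 1575 and 942 on the *Mef2c*-deficient arrays. Both *Mef2c*-deficient values were below the lowest control, and the transcript fell by 1.22 on the log2 scale (SE 0.41, adjusted p = 0.141, limma), which is 2.33-fold in deposited values and 1.80-fold in signal. It passed in 6 of 14 alternative fits and not in the other 8. The arrays whose removal ended the call were control replicate 2 (−1.31), control replicate 3 (−0.95) and *Mef2c*-deficient replicate 2 (−0.85).

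MEKK3 (*Map3k3*), which phosphorylates MEK5 and can also act upstream of p38, read 376, 1069.5 and 2698 on the control arrays and 921 and 13629.9 on the *Mef2c*-deficient arrays. The groups overlapped, since *Mef2c*-deficient replicate 1 lay between the lowest 2 controls and replicate 2 was 14.8-fold above replicate 1. The log2 fold change was 1.79 (SE 1.42, 95% interval −1.87 to 5.44, adjusted p = 0.376, limma). It was −0.16 without *Mef2c*-deficient replicate 2 and 3.73 without replicate 1, and the controls alone spanned 2.84 on the log2 scale, the widest control range of the 8 kinases.

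Both MAP kinase kinases with a probe set were lower on both *Mef2c*-deficient arrays than on any control array. MKK3 (*Map2k3*), an activator of p38, read 5171, 5419 and 4700 on the control arrays, which agree closely, and 2540 and 3354 on the *Mef2c*-deficient arrays. Its log2 fold change was −0.80 (SE 0.25, adjusted p = 0.133, limma). The fold of 1.74 in deposited values was under the threshold of 2, so it was not called. Its sign changed under a further quantile normalization (0.12) and under cyclic loess (0.16). It was −0.04 under housekeeping centring. It passed under median centring (−1.03) and without *Mef2c*-deficient replicate 2 (−1.002).

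MEK5 (*Map2k5*), the activator of ERK5, had the largest decrease of the 8 kinases with all 5 arrays. Without *Mef2c*-deficient replicate 1, *Mapkapk2* (−2.15) and *Map3k5* (−1.59) were lower than *Map2k5* (−1.47). It read 238, 155 and 158 on the control arrays and 40.9 and 65.1 on the *Mef2c*-deficient arrays, with no overlap. The transcript fell by 1.80 on the log2 scale (SE 0.35, 95% interval −2.72 to −0.88, adjusted p = 0.103, limma), which is 3.48-fold in deposited values and 2.38-fold in signal. It was called lower in all 13 alternative fits that tested it, at log2 fold changes of −2.32 to −1.04. Its signal was low, above the array median on only 1 of the 5 arrays, and the probe set drops out when dim probe sets are left out of the test, so how much of its intensity is background was not tested. MKK6 (*Map2k6*), the other activator of p38, had no value here.

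The MAP kinases themselves were lower on average without passing the test. p38α (*Mapk14*) read 1753, 2562 and 1980 on the control arrays and 505 and 1851 on the *Mef2c*-deficient arrays. The decrease rested on *Mef2c*-deficient replicate 1, since replicate 2 was inside the control range. The log2 fold change was −1.10 (SE 0.61, 95% interval −2.67 to 0.47, adjusted p = 0.259, limma). It was −2.04, and passed, without *Mef2c*-deficient replicate 2, and −0.16 without replicate 1.

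ERK5 (*Mapk7*), a large MAP kinase that phosphorylates MEF2 factors, read 2185, 3698 and 1773 on the control arrays and 1507 and 1059 on the *Mef2c*-deficient arrays. Both *Mef2c*-deficient values were below the lowest control, by less than the controls differed among themselves. The log2 fold change was −0.94 (SE 0.41, 95% interval −2.01 to 0.12, adjusted p = 0.198, limma). It passed only under median centring of the arrays (−1.17). Under quantile, cyclic loess and housekeeping scaling it was between −0.20 and −0.17.

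Downstream of p38, neither of the related kinases MK2 and MK3 passed. MK2 (*Mapkapk2*), which phosphorylates HSP27 and tristetraprolin, read 2500, 2133 and 2991 on the control arrays and 2133 and 565 on the *Mef2c*-deficient arrays. *Mef2c*-deficient replicate 1 had the same value as control replicate 2, so the groups met. Equal values on a pair of arrays occurred in 42.8% of all probe sets. The log2 fold change was −1.20 (SE 0.61, adjusted p = 0.241, limma), and it was −2.15, and passed, without *Mef2c*-deficient replicate 1, but −0.24 without replicate 2.

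MK3 (*Mapkapk3*) read 6417, 20352 and 7614 on the control arrays and 14387 and 72284 on the *Mef2c*-deficient arrays. The groups overlapped through control replicate 2, while *Mef2c*-deficient replicate 2 was above every other array. The log2 fold change was 1.69 (SE 0.88, 95% interval −0.59 to 3.97, adjusted p = 0.245, limma). It passed under quantile (2.50), cyclic loess (2.70) and housekeeping (2.45) scaling and without *Mef2c*-deficient replicate 1 (2.86), and was 0.53 without replicate 2. The probe set that MK5 (*Mapkapk5*) shares with *Adam1a* read 8.76, 9.63 and 11.4 on the control arrays and 18.3 and 12.6 on the *Mef2c*-deficient arrays, below the array median on all 5, and cannot be assigned to either gene.

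Bright transcripts were in general lower on the *Mef2c*-deficient arrays, and most of the kinases are bright. All probe sets were split into 10 equal groups from the dimmest to the brightest. The eighth group, with a median log2 fold change of −0.84, holds *Mapk14*, *Mapk7*, *Map3k3*, *Map3k5* and *Mapkapk2*. The ninth, at −1.07, holds *Map2k3*, and the brightest, at −0.90, holds *Mapkapk3*. In the eighth group 27.3% of probe sets were called lower and 2.65% higher, so the call of *Map3k5* was of a common kind at its level. *Map2k5* differed in this respect. It belonged to the fourth group, where the median was 0.58, 3.15% of probe sets were called lower and 16.7% higher. *Mapkapk3* and *Map3k3* lay above the 90th percentile of their groups, which was −0.08 and 0.83.

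**Figure D2:**
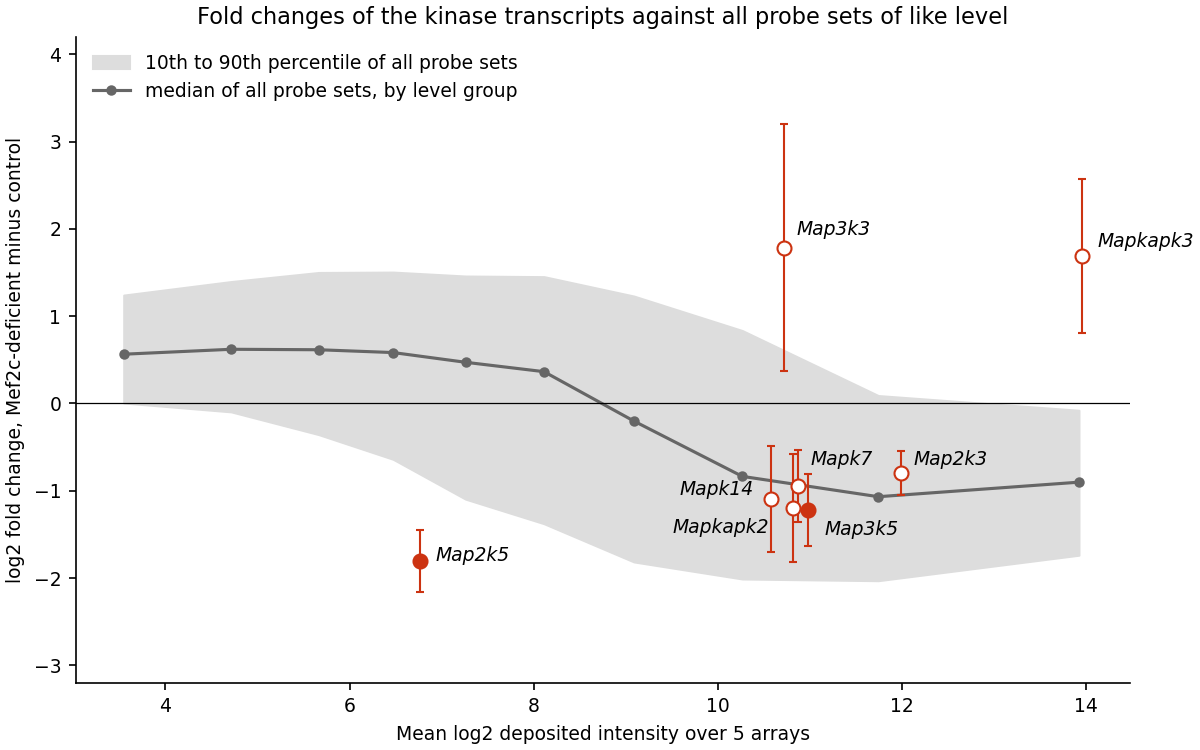
Log2 fold change (*Mef2c*-deficient minus control, bars ± SE) of the 8 kinases against their mean log2 deposited intensity over 5 arrays. Filled points passed the call, the line is the median of all probe sets in 10 level groups, and the band is their 10th to 90th percentile. *Map2k5* lies below the band and *Map3k3* and *Mapkapk3* above it, while the other 5 kinases lie inside it.

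The pair of *Mef2c*-deficient arrays differed from each other over much of the cascade. They were more than 1 apart on the log2 scale for 4 of the 8 kinases (*Map3k3*, *Mapkapk3*, *Mapkapk2* and *Mapk14*), beside 36.3% of all probe sets. *Mef2c*-deficient replicate 2 was at least 2-fold above all other arrays for *Map3k3* and *Mapkapk3*, beside 4.73% of all probe sets, and at least 2-fold below them for *Mapkapk2*, beside 9.37%. *Mef2c*-deficient replicate 1 was at least 2-fold below all other arrays for *Mapk14*, beside 5.01%. Of the 57 other pathway genes, replicate 2 was in the same way below all other arrays for 9 (*Mapk11*, *Map3k11*, *Traf2*, *Rps6ka5*, *Dusp2*, *Dusp5*, *Zfp36*, *Zfp36l2* and *Cdc25b*) and above them for 5, p38δ (*Mapk13*), *Map3k2*, *Taok1*, *Max* and *Rcsd1*. *Mapk13* read 1762, 2257 and 628 on the control arrays and 1383 and 10878 on the *Mef2c*-deficient arrays.

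Markers of pro-B cells and of other cell types also differed on *Mef2c*-deficient replicate 2, and control arrays differed in them too. Of the 13 pro-B cell markers, 11 were highest on control replicate 3 and 4 were lowest on control replicate 2. Of 12 myeloid markers, 5 were highest on control replicate 2 and 7 lowest on control replicate 3. The summed value of the 13 pro-B cell markers was 751346 on *Mef2c*-deficient replicate 2, 1447140 on replicate 1 and 1081160 to 1798320 on the control arrays, and 5 of the 13 were lowest on replicate 2. Among these, *Ebf1* read 3026 there and at least 29295 elsewhere, *Blnk* 2661 and at least 18899, and *Cd24a* 152861 and at least 528504, whereas *Ptprc* was highest there. The T cell CD3 chains *Cd3d*, *Cd3e* and *Cd3g* read 4684, 13843 and 3212 on replicate 2 and at most 582, 387 and 194 on any other array. Other T and NK cell markers went both ways. *Nkg7* read 5899 on replicate 2 and at most 1116 on any other array, and *Cd5* and *Ncr1* were also highest there. Others were below the controls. *Cd247*, a further chain of the receptor complex, read 6080 on replicate 2 and 7856 to 14876 on the control arrays, *Prf1* 3404 and 6644 to 9364, and *Gzma* 71.3 and 106 to 206. Of 14 T and NK cell markers 6 were highest on replicate 2, and their summed value was 55922 there, 21571 on replicate 1 and 26119 to 47310 on the control arrays. Of 8 measured plasmacytoid dendritic cell markers, all 8 were above the array median on replicate 2 and 6 were highest there. The 8 had a median of 3.21-fold in deposited values over their mean log value elsewhere, although their summed value, 128738, was between those of the controls (99073 to 261124). Replicate 1 had a sum of 156745. Of 12 myeloid markers 6 and of 7 measured erythroid markers 4 were highest on replicate 2. Summed myeloid values were 5716700 there, 2503400 on replicate 1 and 2324500 to 4846980 on the control arrays. Erythroid sums were 4942, 1609 and 892 to 1056. No marker was at 0 on any array. The part of these markers' cells in the values of *Map3k3*, *Mapkapk3* and *Mapkapk2* was not tested. On replicate 1, the 15 bacterial hybridisation control probe sets had a median 1.97 above their mean over the 5 arrays on the log2 scale, against −1.58 to 0.12 on the others, and the part of this in *Mapk14* was not tested.

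**Figure D3:**
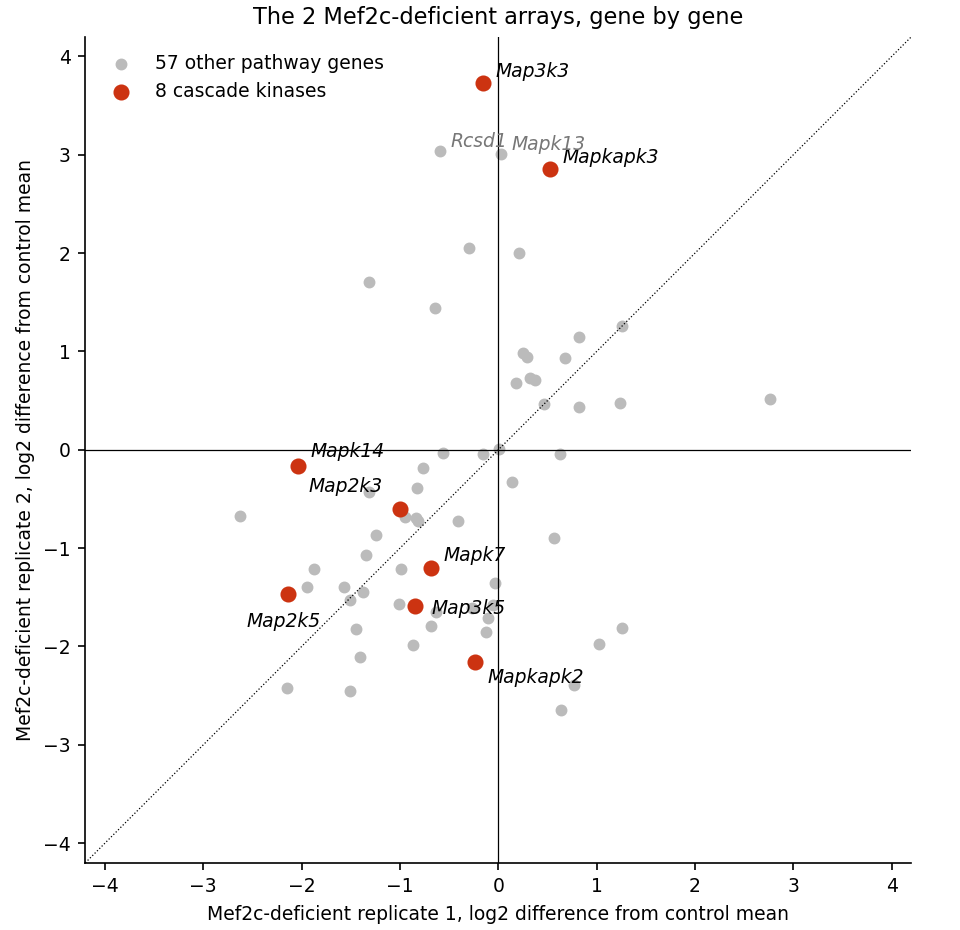
Difference of each *Mef2c*-deficient array from the mean of the 3 control arrays (log2 of deposited intensity), replicate 1 on the horizontal and replicate 2 on the vertical axis, for the 8 kinases (red) and 57 other pathway genes (grey). On the dotted line both arrays differ equally from control. *Map2k3*, *Map2k5*, *Map3k5* and *Mapk7* lie in the lower left near it. *Map3k3* and *Mapkapk3* lie far higher on replicate 2 (3.73 and 2.86) than on replicate 1 (−0.16 and 0.53).

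The other genes of the 2 pathways were taken from 6 lists by role, each gene by its brightest probe set, and 57 of 61 were measured. Of these, 13 (22.8%) were called lower and 1 (1.75%) higher, beside 16.6% and 9.56% of all genes, and their median log2 fold change was −0.61, against 0.04 over all genes. None had an adjusted p under 0.05 in limma, and 19 had an unadjusted p under 0.05. Many of these genes are bright, above the array median on every array. Over all probe sets above the median level the median was −0.68. In the eighth, ninth and brightest level groups 27.3%, 38.5% and 31.8% of probe sets were called lower. The shares of all genes are therefore no match for level, and the lists were not compared with probe sets of like level.

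Among 20 other MAP3Ks and adaptors, 6 fell and none rose, with a median of −0.69. The stress-activated kinase ZAK (*Map3k20*) fell by 2.29 on the log2 scale, from 5281, 8876 and 4215 on the control arrays to 1313 and 1086. TAK1 (*Map3k7*), which relays cytokine and Toll-like receptor signals, fell by 1.67 (2.23-fold in signal), and *Tab3*, a subunit of its complex, by 1.54. The other 3 were *Map3k1* (−1.11), *Map3k4* (−1.21) and *Map3k11* (−1.14). *Tab2*, of the same complex as *Tab3*, was below control on both arrays at −0.82, short of the fold threshold. Thioredoxin (*Txn1*), which holds ASK1 inactive, did not pass (−0.30).

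Of 3 kinases that p38 activates beside the MAPKAP kinases, 2 fell, the MNK kinases *Mknk1* (−1.76) and *Mknk2* (−1.29), which phosphorylate the translation factor eIF4E. *Rps6ka5* (MSK1) was at −0.90 and did not pass. None of 3 other p38 isoforms passed. *Mapk11* (p38β) was below control on both arrays at −0.94, *Mapk12* (p38γ) was under the array median on all 5 arrays, and *Mapk13* has been described above.

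Of 11 measured genes in the phosphatase list drawn up for p38 and ERK5, none passed in either direction. Their median of 0.46 was the highest of the 6 lists. *Dusp1*, an immediate early phosphatase of p38, read 84817, 100802 and 4188 on the control arrays and 56172 and 6298 on the *Mef2c*-deficient arrays. It was low on control replicate 3 and *Mef2c*-deficient replicate 2 alike, so its spread ran across the groups. *Ppm1d*, induced by p53, was at −1.52 with both *Mef2c*-deficient arrays below control, where control replicate 3 read 18058 and the other controls 6060 and 5593.

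Of 15 measured substrates of p38 or the MAPKAP kinases, 4 fell and 1 rose. *Atf2*, a transcription factor phosphorylated by p38, fell by 1.98, from 4348, 4700 and 4191 on the control arrays to 1553 and 804, a 2.59-fold decrease in signal. *Ddit3* (CHOP) fell by 1.41, and the RNA-binding protein genes *Elavl1* (HuR) and *Zfp36l2* by 1.65 and 1.24. *Elk4*, a ternary complex factor, rose by 1.26, from 7261, 6644 and 15299 to 21657 and 21646, a 1.83-fold increase in signal. *Zfp36* (tristetraprolin, −0.69) and *Hspb1* (HSP27, 0.85), targets of MK2, did not pass.

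Of 5 transcripts that ERK5 is known to induce, 1 fell. *Nr4a1* (NUR77), whose promoter is a textbook target of MEF2 factors, fell by 1.64, from 1081, 513 and 362 on the control arrays to 214 and 165, a 2.20-fold decrease in signal. *Klf2*, which ERK5 induces through MEF2, read 17564, 20056 and 9288 on the control arrays and 14285 and 4986 on the *Mef2c*-deficient arrays, and at −0.81 did not pass. *Klf4* (−0.56), *Jun* (−0.47) and *Fosl1* (0.29) also overlapped between the groups.

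**Figure D4:**
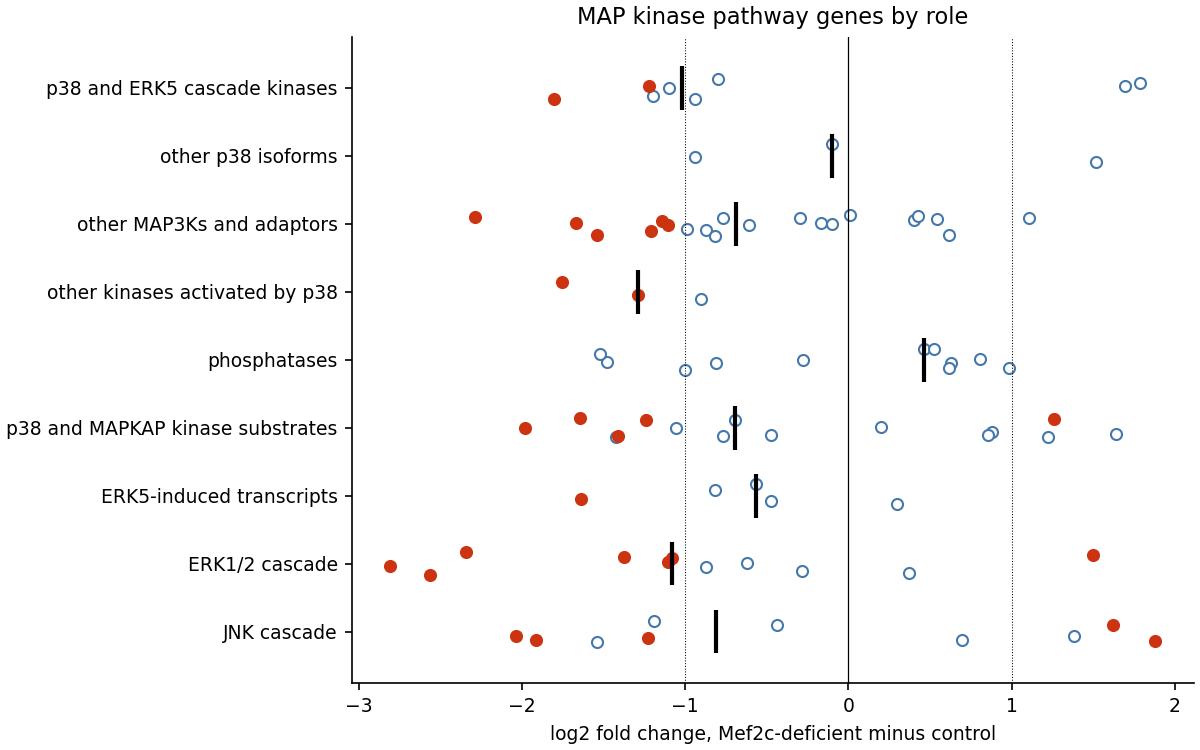
Log2 fold changes between *Mef2c*-deficient and control arrays for the brightest probe set of each gene in the 8 kinases, 6 lists of other p38 and ERK5 pathway genes and 2 neighbouring cascades. Filled points passed the call, open points did not, thick lines are list medians and dotted lines mark the fold threshold. The phosphatases are the only list of other p38 and ERK5 pathway genes with a median above 0, and hold no filled point. That median is of a dim probe set, and dim probe sets were in general higher.

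The neighbouring MAP kinase cascades also held calls. In the ERK1/2 cascade 6 of 11 measured genes (54.5%) fell and 1 (9.09%) rose, beside 16.6% and 9.56% of all genes, with a median of −1.08. Several of the 11 are bright, and in the eighth and ninth level groups 27.3% and 38.5% of probe sets were called lower. *Spred1* was above the array median on only 3 arrays, and *Spred2* and *Braf* on 4. *Spred1* and *Spred2*, inhibitors of RAS signalling to RAF, fell by 2.81 and 2.35 (3.85-fold and 3.09-fold in signal), MEK2 (*Map2k2*) by 2.56, *Braf* by 1.38, *Dusp7* by 1.11 and *Araf* by 1.08, and the scaffold *Ksr1* rose by 1.50. In the JNK cascade 3 of 10 (30%) fell and 2 (20%) rose, beside the same shares of all genes. Those that fell were *Map2k4* (−2.04), JNK2 (*Mapk9*, −1.91) and the scaffold *Mapk8ip3* (−1.23). Those that rose, *Mapk10* (1.88) and *Mapk8ip2* (1.62), had levels under the array median on at least 4 of 5 arrays. Of the 4 MEF2 genes, only *Mef2c* itself passed. *Mef2d* was at −1.10, *Mef2a* at −0.59 and *Mef2b* at 0.30.

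The probe sets whose profile over the 5 arrays was closest to that of *Mapk14*, by the root mean square difference of mean-centred log2 values, belonged to *Tlr2* (0.062), *Dtx4* (0.064) and *Rinl* (0.10). *Tlr2*, a receptor for bacterial lipopeptides, read 707, 1119 and 899 on the control arrays and 211 and 819 on the *Mef2c*-deficient arrays, low on replicate 1 as *Mapk14* was. Those closest to *Mapk7* belonged to *Fbxw4* (0.081), *Rcor1* (0.098) and *Git2* (0.0997). *Rcor1*, a corepressor, read 2320, 3690 and 1925 on the control arrays and 1426 and 1220 on the *Mef2c*-deficient arrays. With 5 arrays and 23809 probe sets, close profiles describe these arrays only.

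The scaling of the arrays moved the values of most kinases in the same direction. A further quantile normalization, cyclic loess and centring on housekeeping genes brought the median log2 fold change of the 8 from −1.02 to −0.33, −0.28 and −0.26, while median centring brought it to −1.25. Under the first 3 of these *Mapkapk3* passed as higher and *Map3k5* no longer passed as lower, and under median centring 5 kinases passed as lower. *Map2k5* kept its call under all 4. Under quantile normalization and cyclic loess it fell further, from −1.80 to −2.23 and −2.32, whereas every other kinase moved up.

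**Figure D5:**
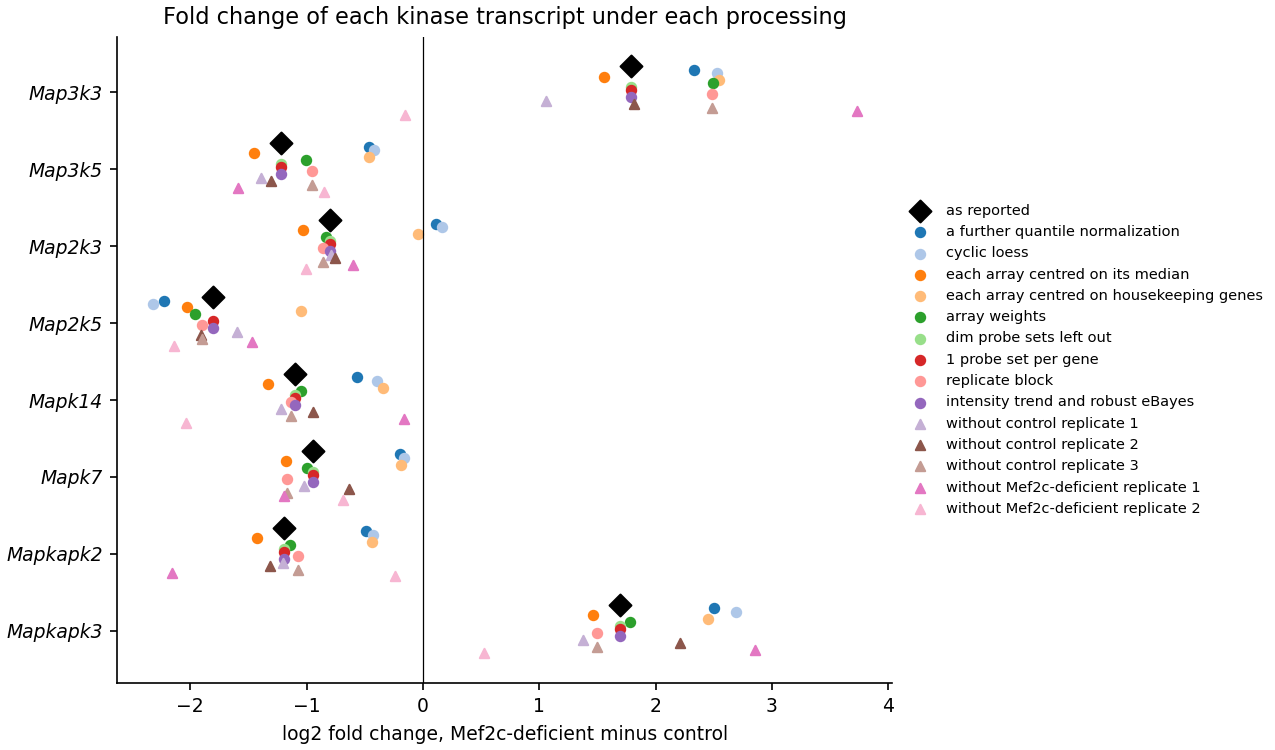
Log2 fold change (*Mef2c*-deficient minus control) of each kinase as reported (black diamond), under other processing (circles) and with 1 array left out (triangles). *Map2k5* stays below −1 in every fit shown, *Map2k3* crosses 0 under quantile and loess scaling, and *Map3k3* ranges from −0.16 to 3.73.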

How the data were processed

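RNA of sorted pro-B cells was measured on 3 control and 2 *Mef2c*-deficient arrays. The authors processed the arrays by robust multiarray averaging (RMA: background adjustment, quantile normalization and summary per probe set). They deposited 1 intensity per probe set and array. Per the study's methods, probes with few detection calls were left out of its analysis. The methods do not say how the probe sets of the deposited table were chosen. The table held 23835 probe sets, of which 26 were Affymetrix controls and 23809 were tested. Of these, 17621 had 1 gene symbol in GEO's platform annotation, 516 several and 5672 none. The members and gene lists were chosen with earlier results of these data known.

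Log2 intensities were compared by limma (version 3.58.1, R 4.3.3; lmFit, eBayes, Benjamini-Hochberg over all probe sets, no covariates). Calls needed an unadjusted p of at most 0.05 and a fold of 2 or more. The fit was tested on simulated data. The genes named are all members, the list genes that passed the call, up to 2 others per list, and the 3 closest profiles to *Mapk14* and to *Mapk7*. Other list genes named were chosen after their values were seen. The number of arrays limits the precision. Alternatives were other scalings, array weights, a filter on dim probe sets, 1 probe set per gene, a replicate block, another variance model, other thresholds and each array left out.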

Additional observations from a re-analysis of the deposited data

How the results depend on the processing

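The number of the 8 kinases called lower (2) was 1 under a further quantile normalization, cyclic loess, housekeeping centring, array weights, dim probe sets left out and a fold of 2 in signal, 5 under median centring, and 0 at an adjusted p under 0.05. With 1 array left out it ran from 1 (without control replicate 2 or 3) to 3. The number called higher (0) was 1 under quantile, loess and housekeeping scaling, and ran from 0 to 1 with 1 array left out, the 1 being *Mapkapk3* without *Mef2c*-deficient replicate 1. Of the 57 other pathway genes, the number called lower (13) was 6 under quantile, loess and array weights, 2 under housekeeping centring, 7 by fold in signal, 0 by adjusted p, and 6 (without *Mef2c*-deficient replicate 2) to 14 with 1 array left out, with 7 and 8 without control replicates 1 and 2. The number called higher (1) was 4 under quantile and loess, 12 under housekeeping centring, 0 under median centring, by fold in signal and by adjusted p, 3 at an unadjusted p of at most 0.05 alone, and 0 (without control replicate 1 or 2) to 3 (without *Mef2c*-deficient replicate 1). The sign reversed for *Map2k3* under quantile (0.12) and loess (0.16) and for *Map3k3* without *Mef2c*-deficient replicate 2 (−0.16, against 3.73 without replicate 1). The cause of these changes was not tested. Housekeeping centring moved the median of all probe sets from 0.19 to 0.94 and gave 9572 probe sets an adjusted p under 0.05. There were 1386 and 2524 such probe sets without *Mef2c*-deficient replicates 1 and 2 and 0 in the other fits. Over all probe sets, the number called lower (3206) was 1832 under quantile and under loess, 853 under housekeeping centring and 2025 by fold in signal. The number called higher (2401) was 1591 under loess, 1558 under median centring, 10504 under housekeeping centring, 1460 under array weights, 576 without dim probe sets, 1089 by fold in signal, and 1424, 1404 and 4389 without control replicate 1, control replicate 3 and *Mef2c*-deficient replicate 2. Without dim probe sets *Map2k5* was not tested.

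Control and *Mef2c*-deficient arrays share replicate numbers 1 and 2, but nothing says that these pair the arrays, and same-numbered arrays deviated together with correlations across probe sets of 0.105 and −0.031. With the replicate block, 1 kinase was called lower (*Map2k5*) and 2 higher (*Map3k3*, 2.48, and *Mapkapk3*, 1.50), 8 other pathway genes were called lower, and 1022 probe sets in all were called higher.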
